A study of Mus musculus with 6 samples.

Results

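*Son* and 6 other genes of nuclear speckle and exon junction scaffolds (*Srrm1*, *Srrm2*, *Pnn*, *Acin1*, *Rnps1* and *Sap18*) were followed in mouse embryonic stem cells in which *Son* itself was knocked down. The genes were chosen by name and their introns and transcripts by gene identifier: 7 of 12134 genes in the total RNA tables, 52 of 85015 introns listed in any of those libraries, and 88 of 116873 transcripts in the long-read tables. All samples were E14 mouse embryonic stem cells of 129/Ola background kept in serum and leukemia inhibitory factor, transfected by lipofection and collected 24 hours later. The control groups received a control siRNA and the knockdown groups an siRNA against *Son*, with no other agent or allele named in the labels. Total RNA depleted of ribosomal RNA came from 2 samples per treatment, and Nanopore cDNA from 1 per treatment. Nothing in the labels says that the samples came from separate cultures, so p-values measure the spread between these samples, which may be technical.

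Nuclear speckles are nuclear bodies rich in splicing factors and polyadenylated RNA. The proteins SON and SRRM2, both large and rich in arginine-serine repeats, form their core, and SRRM1 is a splicing coactivator that binds SRRM2. RNPS1 and SAP18 join either Acinus (*Acin1*) in the ASAP complex or Pinin (*Pnn*) in the PSAP complex, and both complexes sit on the exon junction complex that splicing leaves on RNA.

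The total RNA tables list, for every intron, reads that are split across the junction at either end (spliced) and reads that run through it (unsplit). Split reads at 5′ junctions numbered 16012286 and 10640247 in the controls, against 14978479 and 10556187 in the knockdown. Unsplit reads made up 5.38% and 6.11% of all junction reads in the controls, against 5.998% and 6.85% in the knockdown. The long-read tables held 3080426 control and 1874851 knockdown reads. The cells carried the RNA of embryonic stem cells: 11 of 12 markers of that cell type had listed introns, with a summed level of 4886 to 5163 spliced CPM (a gene's reads split at the 5′ ends of its introns, per 1000000 such reads of the library, with TMM scaling), and *Pou5f1* lay between 1830 and 1997. Of these markers *Tfcp2l1* rose (log2 change 0.23, adjusted p = 0.0354) and *Pou5f1* had lower splicing efficiency (log2 odds ratio 0.79, adjusted p = 0.00259, edgeR). *Sox2*, which has a single exon, was not listed. Of 7 fibroblast markers only *Thy1* was listed (1.16 to 2.17 spliced CPM), of 6 primitive endoderm markers *Gata4* alone passed the filter on low counts (1.83 to 2.91), and 4 of 8 neural or mesoderm markers did, led by *Tubb3* (67.4 to 81.7).

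*Son*, the targeted gene, lost most of its spliced RNA. It had 9 introns listed in every library (chr16:91448685-91474988 on the plus strand of GRCm39, first to last of them). They gave 4376 and 3251 spliced reads in the controls, against 1380 and 1061 in the knockdown. Scaled to the library, these were 283 and 314 spliced CPM against 93.5 and 102, a fall of 3.05-fold (log2 change -1.61, SE 0.09, adjusted p = 3.72e-10, edgeR quasi-likelihood test). The groups lay far apart. *Son* had the change ranked 21 from the largest fall among 9474 genes tested. In bulk RNA, fewer cells with the transcript and less transcript per cell cannot be told apart.

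Among the other scaffold genes, *Srrm2* rose and 5 did not pass the test. In all, 1 of the 7 genes fell and 1 rose, where 6.76% of all tested genes fell and 1.96% rose (8.72% in either direction). The median log2 change of the 6 genes without *Son* was 0.01, and that of all genes tested was 0.005.

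*Srrm2*, the other core protein of speckles, had 1333 and 1304 spliced CPM in the controls, against 1506 and 1733 in the knockdown over 10 introns (chr17:24022373-24043189, plus strand). Both knockdown libraries lay above both controls, by 1.23-fold (log2 change 0.30, SE 0.07, adjusted p = 0.00743). The size differed along the gene: single introns had 1.02 to 1.37 times the control mean in split reads. The call was lost without control replicate 1 (0.31, adjusted p = 0.116) and without control replicate 2 (0.28, adjusted p = 0.207), and in the best covered intron alone (0.40, adjusted p = 0.105).

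*Srrm1*, over 11 introns (chr4:135051421-135080407, minus strand), had 761 and 767 spliced CPM in the controls, against 789 and 880 in the knockdown. The groups did not overlap, but the difference did not pass the test (log2 change 0.13, SE 0.07, adjusted p = 0.333). *Pnn*, over 4 introns (chr12:59113902-59115901, plus strand), had 185 and 198 against 199 and 212 spliced CPM (log2 change 0.10, SE 0.08, adjusted p = 0.544). Its highest control and lowest knockdown values nearly touched.

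The members of the ASAP complex differed by 1.06- to 1.11-fold between the groups, and none passed the test. *Acin1* (11 introns, chr14:54881282-54922467, minus strand) had 281 and 292 spliced CPM in the controls, against 276 and 237 in the knockdown (log2 change -0.16, SE 0.08, adjusted p = 0.307). *Rnps1* (2 introns, chr17:24640826-24644059, plus strand) had 62.4 and 72.7 against 65.7 and 59.4, with overlapping groups (log2 change -0.10, SE 0.11, adjusted p = 0.679). *Sap18* (1 intron, chr14:58039074-58039378, plus strand) had 71.3 and 70.5 against 69.5 and 64.6 (log2 change -0.08, SE 0.10, adjusted p = 0.741). The lowest value of *Acin1*, *Rnps1* and *Sap18* alike was that of knockdown replicate 2. Without knockdown replicate 1, *Acin1* passed the test as lower (log2 change -0.27, adjusted p = 0.000352) and *Srrm1* as higher (0.20, adjusted p = 0.000205).

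Levels of different genes were compared per intron, since the genes have different numbers of listed introns. On that scale the control means ran from *Srrm2* (132 ± 2.0 spliced CPM per intron, SD, n = 2) through *Sap18* (70.9 ± 0.56), *Srrm1* (69.4 ± 0.42), *Pnn* (47.8 ± 2.2), *Rnps1* (33.8 ± 3.6) and *Son* (33.2 ± 2.4) to *Acin1* (26.0 ± 0.66). *Rnps1* and *Son* did not differ beyond their spread in the controls. In the knockdown *Son* was last, at 10.9 ± 0.68, below *Acin1* at 23.3 ± 2.5.

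**Figure D1:**
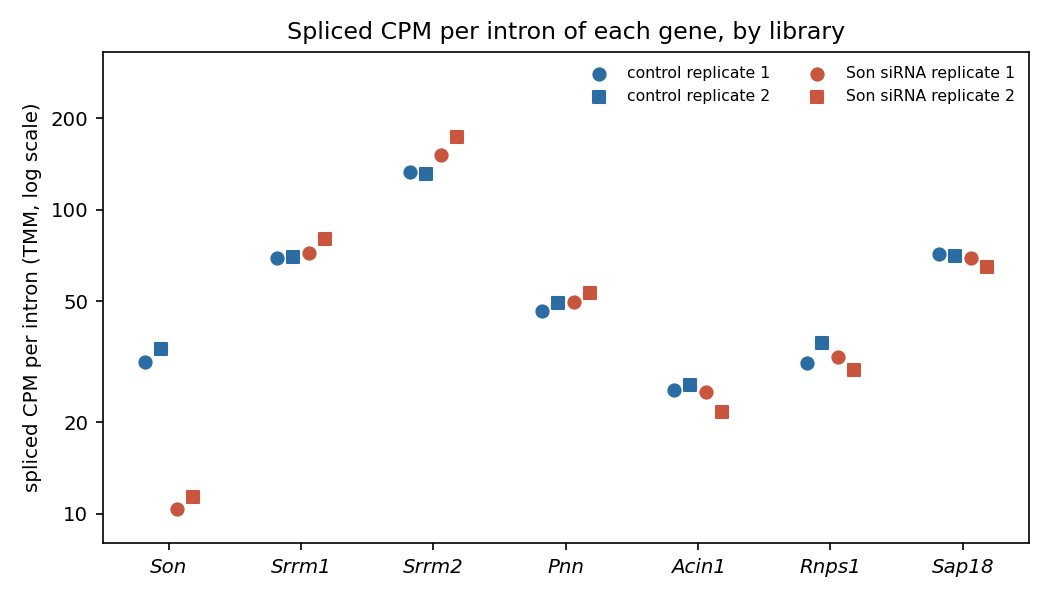
Spliced CPM per intron (log axis) of each gene in each of the 4 total RNA libraries; circles are replicate 1, squares replicate 2, blue control and red *Son* siRNA. *Son* fell from 31.4 and 34.9 to 10.4 and 11.3, *Srrm2* rose from 133 and 130 to 151 and 173, and the other genes kept control and knockdown points close together.

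Unsplit reads of *Son*, those that run through a junction, differed far less between the groups than its spliced reads. Over the introns of *Son* they numbered 565 and 445 in the controls, against 441 and 374 in the knockdown, or 35.3 and 41.8 against 29.4 and 35.4 unsplit reads per 1000000 spliced reads of the library. The groups overlapped only by the narrowest margin, with control replicate 1 and knockdown replicate 2 at nearly the same value. With unsplit reads scaled to their own totals by TMM, the log2 change was -0.38 (SE 0.13, adjusted p = 0.0998, edgeR). That is a 1.30-fold difference beside the 3.05-fold difference in spliced reads, which were scaled to spliced totals. Per 1000000 spliced reads, as above, the means were 38.6 and 32.4, and the change fitted on that scale was smaller. Unsplit reads were tested as a separate quantity after the data had been seen, and none of the 7 genes passed, while 3.88% of 8722 genes did (3.66% with more and 0.218% with fewer unsplit reads). The other 6 genes had log2 changes of -0.29 (*Sap18*) to 0.10 (*Acin1*) in unsplit reads.

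Splicing efficiency is the share of split reads among all junction reads, and summing reads over a gene's introns gave 1 test per gene. Both ends of an intron were summed, so a read split across it was counted at each, and these counts are not independent. The 5′ ends alone gave 507 calls over all genes and the 3′ ends alone 481, in place of 666. For *Son* it was 0.932 and 0.929 in the controls, against 0.849 and 0.834 in the knockdown (0.931 ± 0.0024 against 0.842 ± 0.010, SD, n = 2). The odds of an unsplit read rose 2.52-fold (log2 odds ratio 1.34, SE 0.23, adjusted p = 1.09e-06, edgeR). This share also falls when split reads are lost and unsplit reads are not. As *Son* is the siRNA target, loss of its spliced RNA and poorer splicing cannot be told apart here. *Son* was the 1 gene of 7 called, where 6.98% of 9370 genes had lower and 0.128% higher splicing efficiency (7.11% either way). The call held in each fit with 1 library left out, with adjusted p from 2.64e-05 to 0.0106, and was lost with limma on the log2 odds (1.34, adjusted p = 0.116), which called none of the 9370 genes (1231 at an unadjusted p under 0.05; DESeq2 called 506).

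The other 6 genes did not pass the test. *Acin1* had the largest difference in mean splicing efficiency, with 0.952 and 0.936 in the controls, against 0.939 and 0.918 in the knockdown (log2 odds ratio 0.38, SE 0.23, adjusted p = 0.533). *Srrm2* stayed near complete splicing, at 0.982 and 0.979 against 0.984 and 0.983 (-0.21, SE 0.21, adjusted p = 0.842). With split and unsplit reads scaled to their own totals, *Srrm2* passed as more efficiently spliced (-0.38, adjusted p = 0.0207); that scaling moved the median of all genes from 0.09 to -0.08 and the calls toward higher efficiency from 12 of 666 to 118 of 719. *Srrm1* (0.956 and 0.948 against 0.958 and 0.952), *Pnn* (0.977 and 0.980 against 0.978 and 0.980), *Rnps1* (0.941 and 0.940 against 0.938 and 0.944) and *Sap18* (0.967 and 0.959 against 0.970 and 0.960) all had overlapping groups, and their signs changed between settings.

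**Figure D2:**
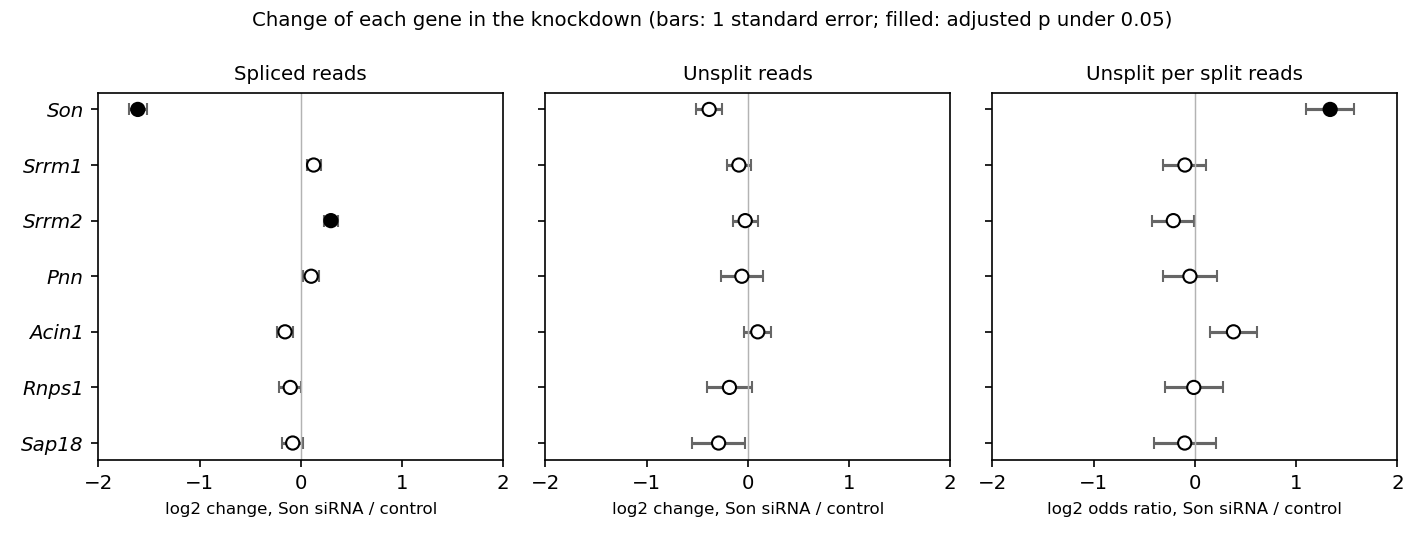
Fitted log2 change of spliced reads, of unsplit reads and log2 odds ratio of unsplit to split reads (knockdown over control) for each gene, with bars of 1 standard error and filled points where the adjusted p was under 0.05. *Son* stands at -1.61, -0.38 and 1.34 in the 3 panels, and *Srrm2* at 0.30 for spliced reads; no other point is filled.

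Within *Son*, every tested intron had a higher ratio of unsplit to split reads after knockdown. The 9 log2 odds ratios were above 0 (0.71 to 1.76, median 1.39). Of these introns, 7 had an unadjusted p under 0.05 and 4 passed the adjusted threshold, all 4 with lower efficiency, against 1.76% of 63309 introns (1.71% with lower and 0.0442% with higher efficiency). In 8 of the 9 both controls lay above both knockdown libraries, which held for 23.6% of all introns listed in 4 libraries. Split reads per junction fell to between 0.247 and 0.385 of the control level along the gene, while unsplit reads kept 0.526 to 1.02 of theirs. The higher ratios thus came with fewer split reads, and poorer splicing cannot be told apart from loss of spliced RNA. The first intron of *Son* was listed in the controls alone, with a splicing efficiency of 0.685 and 0.669.

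The 4 called introns lie within the coding region, and the joined exon ends below show where each was removed (GENCODE M21 transcript sequence, 30 bases of each exon, 5′ to 3′, with capitals for the last 3 bases of the upstream exon and the first 3 of the downstream exon).
Son ENSMUST00000114036 intron 4: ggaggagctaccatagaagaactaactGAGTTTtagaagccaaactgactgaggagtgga
Son ENSMUST00000119368 intron 6: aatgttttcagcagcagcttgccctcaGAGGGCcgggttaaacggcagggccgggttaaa
Son ENSMUST00000117633 intron 7: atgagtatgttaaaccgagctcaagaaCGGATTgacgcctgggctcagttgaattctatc
Son ENSMUST00000117633 intron 9: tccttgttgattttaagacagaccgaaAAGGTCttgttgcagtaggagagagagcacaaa

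The first pair lead into alternative last exons that end the protein early. Transcript ENSMUST00000114036 has 5 exons, and its stop codon starts at base 4 of the last one, the tag that follows the capitals above. Transcript ENSMUST00000119368 has 7 exons, with the stop codon at base 253 of the last. Full-length ENSMUST00000117633 has 12 exons and carries the other pair.

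Intron 6 of ENSMUST00000119368 (chr16:91461711-91461807, 97 nt) was the least efficiently spliced intron of *Son* and changed most. Its efficiency was 0.515 and 0.578 in the controls, against 0.307 and 0.216 in the knockdown (log2 odds ratio 1.76, SE 0.51, adjusted p = 0.0413). Controls and knockdown were well separated. Reads split at its 3′ end, which lead into the alternative last exon, fell from 31 and 41 to 6 and 4, while unsplit reads there numbered 69 and 58 against 46 and 42.

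Intron 4 of ENSMUST00000114036 (chr16:91459150-91459379, 230 nt) had an efficiency of 0.924 and 0.905 in the controls, against 0.751 and 0.818 in the knockdown (log2 odds ratio 1.58, SE 0.43, adjusted p = 0.0268). Its 5′ end is shared with the full-length transcript: 603 and 424 control reads were split there, against 80 and 62 at its 3′ end. By the 3′ end alone its efficiency was 0.690 and 0.646 against 0.429 and 0.553, still apart but not past the threshold (1.09, adjusted p = 0.695).

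Intron 7 of ENSMUST00000117633 (chr16:91467463-91468236, 774 nt) went from 0.819 and 0.859 to 0.606 and 0.659 (log2 odds ratio 1.60, SE 0.43, adjusted p = 0.0227). Both of its ends were lower in the knockdown. Intron 9 (chr16:91472437-91474292, 1856 nt) went from 0.949 and 0.954 to 0.894 and 0.824 (1.64, SE 0.38, adjusted p = 0.00508). It overlaps *Donson* on the opposite strand, as do the next 2 introns of *Son*. Whether reads were counted by strand is not given in the sources used here. Unsplit reads of *Donson* thus cannot be told apart in these introns or in the sums for *Son*.

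All 4 kept their direction under the alternatives tried, but the calls did not hold under each. The 5′ junctions alone gave 1 call, and DESeq2, limma and the 3′ junctions alone gave 0. Without control replicate 1 or 2 there were 0 calls, and without knockdown replicate 1 or 2 there were 2.

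**Figure D3:**
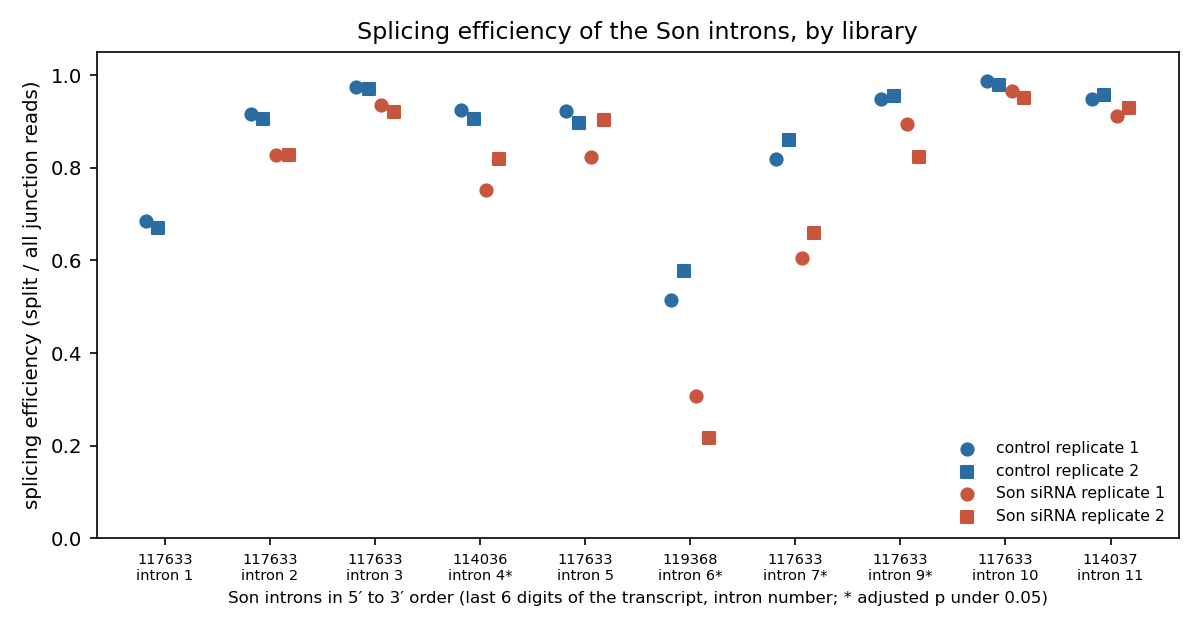
Splicing efficiency (split reads over all junction reads, 0 to 1) of each *Son* intron in 5′ to 3′ order, with 1 point per library; asterisks mark adjusted p under 0.05. The red knockdown points lie below the blue control points in 8 of the 9 introns listed in all libraries, with the lowest at 0.307 and 0.216 in intron 6 of ENSMUST00000119368; intron 1 has control points only.

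Of the 37 tested introns of the other 6 genes, 0 passed with edgeR, where 1.76% of all introns did. DESeq2 called none of them and 294 introns over all genes, and limma called no intron of any gene. Their log2 odds ratios fell on both sides of 0, with 19 above and 18 below and a median of 0.07, where the median of all introns was 0.12. Controls lay above the knockdown in 7 of 39 introns and below it in 7, against 23.6% and 13.0% of all introns. The 1 intron at an unadjusted p under 0.05, singled out after its value was seen, was intron 11 of *Acin1* ENSMUST00000022793 (chr14:54884061-54884159, 99 nt). It had an efficiency of 0.989 and 0.986 in the controls, against 0.975 and 0.964 in the knockdown (1.28, SE 0.43, adjusted p = 0.122). It overlaps *Gm17606* on the opposite strand. In all, 7 *Acin1* introns overlap *Gm17606* or *4930579G18Rik* and 1 *Srrm2* intron (ENSMUST00000190686 intron 10) overlaps *AC122821.1*, all on the opposite strand, so unsplit reads of the overlapping genes cannot be told apart in these introns or in the sums for *Acin1* and *Srrm2*.

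For each gene the intron with the lowest splicing efficiency in the controls, among those listed in every library, is described here. In *Srrm1* it was intron 13 of ENSMUST00000105861, at 0.734 and 0.736 in the controls, against 0.752 and 0.738 in the knockdown. In *Acin1* it was intron 1 of ENSMUST00000123875, at 0.723 and 0.731 against 0.756 and 0.603. In *Rnps1* it was intron 6 of ENSMUST00000163717, at 0.768 and 0.766 against 0.686 and 0.741. With both ends summed, the *Rnps1* intron alone of these 3 had both knockdown values below both controls. The mean difference was 0.053 (log2 odds ratio 0.40, SE 0.46, adjusted p = 0.921). By the 3′ end alone the *Acin1* intron did so too, at 0.317 and 0.455 in the controls, against 0.245 and 0.200 in the knockdown. The *Acin1* intron overlaps *4930579G18Rik*. The corresponding introns of *Srrm2* (ENSMUST00000186914 intron 1), *Pnn* (ENSMUST00000021381 intron 5) and *Sap18* (ENSMUST00000128764 intron 3) lay between 0.906 and 0.970 in every library. For the *Srrm2* intron this follows its shared 5′ end, with 1065 and 724 split control reads against 31 and 14 at its 3′ end. By the 3′ end alone its efficiency was 0.277 and 0.156 in the controls, against 0.134 and 0.133 in the knockdown. That difference did not pass (log2 odds ratio 0.83, adjusted p = 0.842, edgeR). The largest changes in *Srrm1* (ENSMUST00000105861 intron 9, 0.909 and 0.892 against 0.926 and 0.846), *Srrm2* (ENSMUST00000190686 intron 10, 0.941 and 0.938 against 0.954 and 0.949) and *Acin1* (ENSMUST00000022793 intron 10, 0.876 and 0.800 against 0.824 and 0.717) had adjusted p of 0.977, 0.815 and 0.674, the last 2 in introns that overlap opposite-strand genes.

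**Figure D4:**
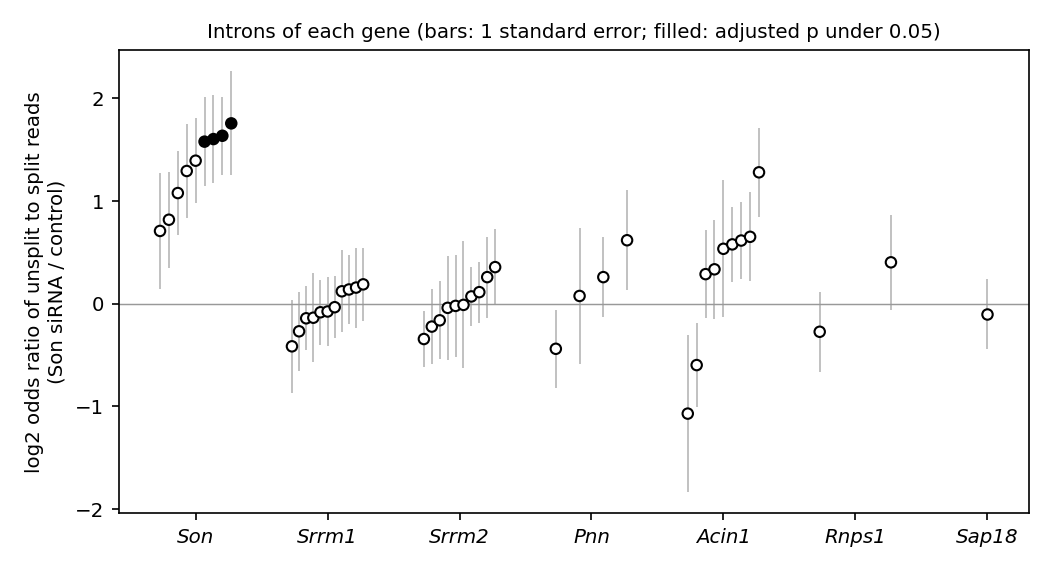
Log2 odds ratio of unsplit to split reads (knockdown over control) of each tested intron, sorted within its gene, with bars of 1 standard error; filled points passed an adjusted p of 0.05. The 9 *Son* introns run from 0.71 to 1.76, while the introns of the other genes spread around 0 from -1.07 to 1.28, both ends being in *Acin1*.

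Whether 1 junction moved apart from the rest of its gene was tested on split reads. None of 47 introns of the 6 genes with at least 2 introns was called by edgeR's diffSpliceDGE, where 0.0514% of 64207 introns were (0.0109% more used and 0.0405% less used), and 1 had an unadjusted p under 0.05. All 9 introns of *Son* were among those not called. Without knockdown replicate 1, 3 introns of *Srrm2* were called as less used: ENSMUST00000190686 introns 3 (log2 relative use -0.47, adjusted p = 0.0181) and 14 (-0.44, adjusted p = 0.00324) and ENSMUST00000186914 intron 1 (-0.45, adjusted p = 0.0126). The 1 intron at an unadjusted p under 0.05 with all libraries was intron 2 of *Acin1* ENSMUST00000150371 (log2 relative use -0.63, adjusted p = 1.00, edgeR), described next.

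Where an intron shares 1 end with another intron, the reads split at its 2 ends differ, and their ratio follows the choice between both. This comparison was added after the data had been seen and has no test. Of 13 introns of the 7 genes with fewer than 75% as many reads at 1 end, 10 were listed in every library: the controls lay above the knockdown in 5, below it in 1, and overlapped it in 4, where 19.9% and 15.0% of 4463 such introns lay above and below. Intervals given for these shares are 95% Wilson intervals and cover counting error only.

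The entry into the short *Son* isoform ENSMUST00000114036 kept its share of the reads: 13.3% and 14.6% of reads split at the shared 5′ end were matched at its 3′ end in the controls, against 13.0% and 15.4% in the knockdown. For ENSMUST00000119368 the shares were 28.4% (20.8 to 37.5) and 42.7% (33.3 to 52.7) in the controls, against 18.2% (8.61 to 34.4) and 22.2% (9.001 to 45.2) in the knockdown. The knockdown shares were lower, but rest on 33 and 18 reads, and their intervals overlap those of the controls. The alternative last exon of ENSMUST00000114037 took 41.5% and 43.2% against 48.5% and 40.9%, with overlapping groups.

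In *Srrm2* the ratio follows exon 2 of ENSMUST00000190686, which holds that transcript's start codon and is absent from ENSMUST00000088621, whose start codon lies in the next exon. Of the reads split at the end of exon 1, 67 of 107 and 57 of 114 were matched by reads split at the start of exon 2 in the controls (62.6% and 50.0%), and 89 of 195 and 26 of 74 in the knockdown (45.6% and 35.1%). Both knockdown values were below both controls, though the intervals of control replicate 2 (41.0 to 59.0) and knockdown replicate 1 (38.8 to 52.6) overlapped.

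*Acin1* had the same order in intron 2 of ENSMUST00000150371, found in 7 annotated transcripts, whose 3′ end is shared. Reads at its 5′ end were 20.8% (17.8 to 24.2) and 20.4% (16.8 to 24.6) of those at its 3′ end in the controls, against 13.9% (11.2 to 17.1) and 15.8% (12.1 to 20.5) in the knockdown. In *Rnps1* the 3′ end of intron 6 of ENSMUST00000163717 took 39.8% and 33.6% against 40.7% and 34.2%, with overlapping groups.

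Long reads gave a second measure of the same genes, with 1 library per group, no test and no replicate check. *Son* went from 217 of the control reads to 37 of the knockdown reads, which is 70.4 (95% Wilson interval 61.7 to 80.5) against 19.7 (14.3 to 27.2) long-read CPM (reads per 1000000 of the library). Its ratio was 0.280 (exact interval 0.192 to 0.398, counting error only), ranked 42 from the largest fall of 9616 genes. It was the 1 gene of 7 at least 2-fold lower, as were 4.16% of all genes, and none was 2-fold higher (2.20% of genes). Reads per gene here combine all its transcripts, at least 20 over both libraries.

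Each *Son* transcript with at least 20 reads had fewer in the knockdown library. Full-length ENSMUST00000117633 went from 76 to 13 reads and kept 35.0% and 35.1% of the *Son* reads. ENSMUST00000114037, which differs at its last exon, went from 39 to 3 reads (ratio 0.126, interval 0.025 to 0.398). ENSMUST00000114036 and ENSMUST00000119368 went from 27 to 7 (ratio 0.426, interval 0.157 to 1.003) and from 26 to 5, and ENSMUST00000140312, annotated as a target of nonsense-mediated decay, from 26 to 4. The share on nonsense-mediated decay models was 16.1% (11.8 to 21.6) in the control and 13.5% (5.91 to 28.0) in the knockdown, and no shift between the *Son* transcripts was detectable at this depth. With 0.5 reads added to each count, all 5 were at least 2-fold lower. Of 34 transcripts of the 7 genes with at least 20 reads, 6 were so, the other being *Acin1* ENSMUST00000150371, and 0 were at least 2-fold higher, where 5.80% and 3.32% of 13807 transcripts were. With 5 reads added, 3 of the 6 remained at least 2-fold lower, and *Son* ENSMUST00000114036 (log2 ratio -0.70), *Son* ENSMUST00000119368 (-0.92) and *Acin1* ENSMUST00000150371 (-0.58) did not.

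*Srrm2* had 1831 and 1001 long reads, or 594 (568 to 622) and 534 (502 to 568) long-read CPM, a ratio of 0.898 (0.831 to 0.971). That direction is opposite to its spliced reads in total RNA, where it was 1.23-fold higher. Its main transcripts are 8864 and 8564 nt long. Transcripts of at least 7000 nt had a median log2 ratio of -0.10, against 0.003 for all transcripts. Of these long transcripts 6.16% were at least 2-fold lower, and neither main *Srrm2* transcript was. Whether length bears on the opposite directions was not tested. The transcripts with and without exon 2 changed order: ENSMUST00000190686 held 48.8% (46.5 to 51.1) of the *Srrm2* reads in the control and 41.8% (38.7 to 44.8) in the knockdown, while ENSMUST00000088621 held 45.5% (43.2 to 47.8) and 52.3% (49.3 to 55.4). The intervals of both shares did not overlap between the libraries, but they cover counting error only. The share of all genes with such a shift was not counted. How long reads that do not reach exon 2 were divided between these transcripts is not given in the sources used here. The direction was that of the exon 2 reads in total RNA, which rest on 74 to 195 reads per library.

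*Srrm1* (685 and 341 reads), *Pnn* (488 and 241) and *Acin1* (355 and 172) had ratios of 0.818 (0.716 to 0.933), 0.811 (0.692 to 0.949) and 0.796 (0.660 to 0.958). All 3 ratios and their intervals lay below 1, while their spliced reads in total RNA differed by at most 1.11-fold and did not pass the test. Among 9616 genes they ranked 2505, 2461 and 2276 from the largest fall. The intervals cover counting error only, and the share of all genes with such intervals was not counted. The main transcript of *Srrm1*, ENSMUST00000105861, kept 44.8% and 44.9% of its reads. ENSMUST00000136342 had 141 and 62 reads and ENSMUST00000084846 had 120 and 65. ENSMUST00000030613 (33 and 15), ENSMUST00000150619 (25 and 10) and ENSMUST00000134854 (17 and 12) were rare.

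In *Pnn* the coding transcript ENSMUST00000021381 held 91.0% and 94.6%, and the retained-intron transcript ENSMUST00000217773 had 37 and 11 reads, or 7.58% (5.55 to 10.3) and 4.56% (2.57 to 7.99). Retained-intron models thus made no larger share of *Pnn* reads in the knockdown. Over the 7 genes, the share on such models lay between 0.299% (*Sap18*) and 8.40% (*Pnn*) in the control and between 0 of 424 reads in *Sap18*, which allows a share of up to 0.708%, and 9.88% (*Acin1*) in the knockdown, and each gene's intervals overlapped.

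*Acin1* reads were spread over 26 transcripts, of which 9 had at least 20 reads. ENSMUST00000022793 (61 and 27 reads) and ENSMUST00000111484 (58 and 23) led. ENSMUST00000150371, whose intron 2 is described above, had 22 and 6 reads (ratio 0.448, 0.149 to 1.14), and ENSMUST00000147714 had 18 and 17 (1.55, 0.751 to 3.19). Both intervals include 1, and the other 5 had 17 to 29 control and 10 to 15 knockdown reads.

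*Rnps1* had 451 and 338 long reads, or 146 (134 to 161) and 180 (162 to 201) long-read CPM. Its ratio was 1.23 (1.07 to 1.42, counting error only), ranked 7601 from the largest fall of 9616 genes. Its transcripts differ at their 5′ ends. The coding ENSMUST00000115371, which has 7 exons and starts translation in the first, had 181 and 150 reads (ratio 1.36, 1.09 to 1.70). ENSMUST00000234977, a noncoding processed transcript, had 41 and 46 (1.84, 1.18 to 2.88) and went from 9.09% (6.77 to 12.1) to 13.6% (10.4 to 17.7) of the gene's reads. ENSMUST00000088512 (145 and 85 reads), ENSMUST00000163717 (59 and 31) and the retained-intron ENSMUST00000234630 (15 and 15) had intervals that include 1. Coding transcripts together made up 85.4% (81.8 to 88.3) and 78.7% (74.0 to 82.7) of *Rnps1* reads.

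*Sap18* had 668 and 424 long reads (ratio 1.04, 0.921 to 1.18), of which ENSMUST00000128764 held 96.9% and 95.8%, and ENSMUST00000111267 had 11 and 9. The single-exon gene *Sap18b*, whose transcript matches *Sap18* at 784 of 789 bases without gaps, had 625 and 384, so how the authors' counting divided reads between them is uncertain.

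**Figure D5:**
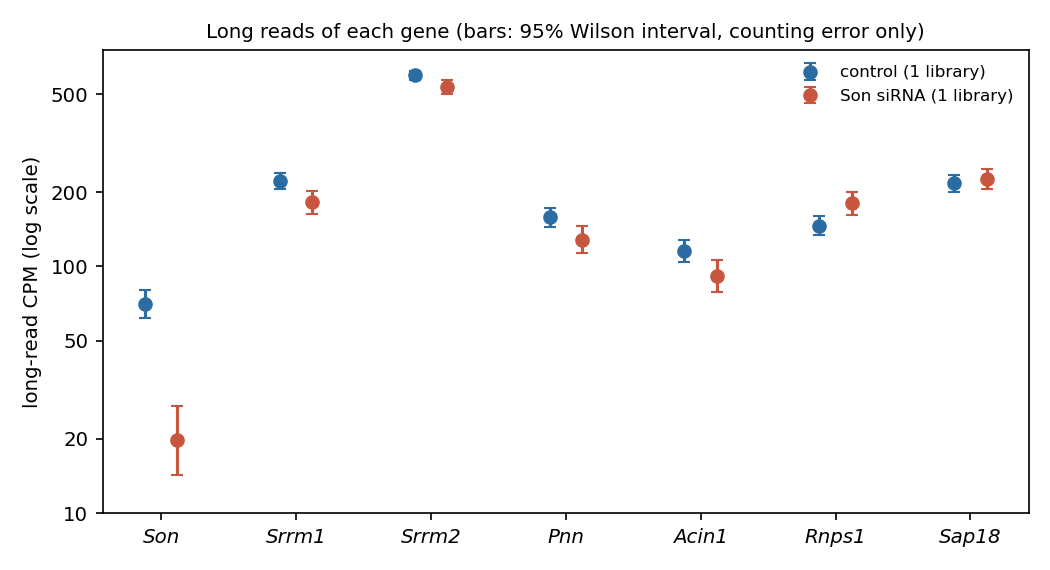
Long-read CPM (log axis) of each gene in the control (blue) and *Son* siRNA (red) library, with 95% Wilson intervals that cover counting error only. *Son* dropped from 70.4 to 19.7; *Srrm1* (222 and 182) was lower and *Rnps1* (146 and 180) higher with intervals that do not overlap, and the points of *Sap18* (217 and 226) nearly coincide.

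The proteins around these scaffolds were described with 2 lists. The first held 21 genes of the exon junction complex and mRNA export, of which 17 could be tested: 2 fell and none rose, where 6.76% of all tested genes fell and 1.96% rose, and the median log2 change was 0.02. *Thoc6*, a subunit of the THO complex that couples transcription to export, had 58.6 and 54.2 spliced CPM in the controls, against 35.5 and 35.9 in the knockdown (log2 change -0.66, SE 0.12, adjusted p = 0.000554). It was also the 1 list gene of 17 with lower splicing efficiency (log2 odds ratio 1.03, adjusted p = 0.0231), beside 6.98% of all genes. *Ddx39b*, the RNA helicase of the same export pathway, had 222 and 214 against 160 and 143 (-0.53, SE 0.08, adjusted p = 0.000223). For both, the groups lay apart.

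The second list held 38 other residents of nuclear speckles, with 34 tested: 1 fell, none rose, none passed for splicing efficiency, and the median log2 change was -0.07. The shares of all genes were 6.76%, 1.96% and 7.11%. The gene that fell was *Prpf31*, a protein of the U4/U6 snRNP, with 152 and 154 spliced CPM in the controls, against 110 and 98.5 in the knockdown (log2 change -0.55, SE 0.09, adjusted p = 0.000265).

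The genes nearest to *Son* in spliced reads over the 4 libraries, by Euclidean distance of centred log2 values among 7387 genes, were *Araf* (0.11), *Zbtb32* (0.13), *Kank3* (0.13), *Susd2* (0.21) and *Foxh1* (0.24). With 2 libraries per group this distance mainly picks genes with a like group difference. Their log2 changes were -1.44 (*Foxh1*) to -1.56 (*Kank3*), beside -1.61 for *Son*. *Araf* had 72.6 and 76.0 spliced CPM in the controls, against 24.5 and 27.4 in the knockdown.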

How the data were processed

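Split and unsplit read counts per intron junction were deposited by the authors, 1 table per total RNA library, made with SPLICE-q per the labels. The deposited score is a fraction from 0 to 1 and equals split over all junction reads; the authors' tables list only junctions with at least 10 reads. For long reads the authors deposited counts per transcript, per the labels. The submitters' processing notes name GRCm39, SAMtools and minimap2 without roles. The aligner of the short reads, the annotation and strand settings are not given in the sources used here. The labels of both long-read samples, the control too, give knockdown replicate 1 as their source, so no pairing between assays was used.

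Groups and replicate numbers came from the sample titles. Repeated introns were reduced to 1 entry per position. Names, transcript types and sequences came from GENCODE M21 by identifier, which covered 99.6% of long reads; of 68081 introns compared, 99.8% had the same length there but 2.53% the same position, so positions are those of the deposited tables. Splicing efficiency was tested with edgeR 4.0.16 in R 4.3.3: a split and an unsplit column per library with 1 library size, a term per library, and the term for unsplit reads in the knockdown (introns in all 4 libraries, at least 10 split and 10 unsplit reads in all). Both ends of an intron were summed in these columns, so a read split across it was counted at each. Spliced reads per gene used 5′ junctions, TMM and filterByExpr. Intron use used diffSpliceDGE. All fits ran over the whole tables with Benjamini-Hochberg adjustment at 0.05. Only the main edgeR fits were also run on simulated data. DESeq2 1.42.0, limma 3.58.1, other filters, scalings, junctions and left-out libraries were alternatives. Long reads were scaled to library totals, with 0.5 reads added for log2 ratios and 95% intervals from scipy 1.17.1; ratio intervals are exact, from the binomial share of the pooled reads. Intervals and floors (3 counts) cover counting error only.

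The genes, lists and tests were chosen with earlier results of these data known. Introns named are those called, and per gene the least efficient in controls and the most changed with at least 50 reads per library; transcripts named have at least 20 long reads. Of the lists of related genes and the stem cell markers, called genes are named. Genes like *Son* were ranked among those with a mean of at least 100 spliced reads. Same-numbered samples did not deviate together (correlation 0.0017 for spliced reads and 0.0085 for log2 odds).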

Additional observations from a re-analysis of the deposited data

How the results depend on the processing

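The fall of *Son* in spliced reads and its lower splicing efficiency kept their direction under every alternative run, and 1 call ended: limma on the log2 odds gave *Son* 1.34 with adjusted p = 0.116. Introns called over all genes (1112) became 294 with DESeq2, 0 with limma (5696 at an unadjusted p under 0.05), 232 at the 5′ junction and 322 at the 3′ junction alone, and 171 to 1427 with 1 library left out. The 4 calls within the 7 genes, all in *Son*, became 0, 0, 1 and 0 in that order, and 0 to 2 with 1 library left out. Genes called for splicing efficiency (666) became 0 with limma and 180 to 702 with 1 library left out. Genes called for spliced reads (826) became 290 in the best covered intron and 381 to 2193 with 1 library left out. Introns called for use (33) became 9 with at least 50 split reads per library and 2 to 349 with 1 library left out, 0 to 3 of them in the 7 genes. Where a library was left out, the lone sample of its group was assumed to vary like the other group. The cause of these shifts was not tested beyond the number of samples and features.

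With the replicate block, 1626 introns, 1018 genes for splicing efficiency, 1000 for spliced reads and 31 for intron use were called, 6 of the introns in *Son*, and *Acin1* passed for splicing efficiency (0.38, adjusted p = 0.022). The samples share only a number, and no other call on the 7 genes changed.

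Spliced reads of *Srrm2* gave 0.40 in the best covered intron and 0.19 to 0.39 with 1 library left out. The same range was 0.046 to 0.20 for *Srrm1*, -0.27 to -0.051 for *Acin1* and -0.22 to 0.0040 for *Rnps1*. Splicing efficiency of *Srrm2* gave a log2 odds ratio of 0.015 at the 5′ junction and -0.38 with split and unsplit reads scaled separately, *Rnps1* gave 0.34 at the 5′ junction and *Sap18* 0.63 at the 3′ junction. With 1 library left out the range was -0.22 to 0.021 for *Srrm1*, -0.14 to 0.058 for *Pnn*, -0.091 to 0.056 for *Rnps1* and -0.30 to 0.11 for *Sap18*.

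Of single introns, *Srrm1* ENSMUST00000105861 intron 9 gave -0.027 with separate scaling and -0.46 to 0.73 with 1 library left out, and intron 13 gave 0.078 at the 3′ junction. *Srrm2* ENSMUST00000186914 intron 1 gave 0.83 at the 3′ junction and -0.46 to 0.0046 with 1 library left out. *Acin1* ENSMUST00000022793 intron 10 gave -0.17 at the 3′ junction, and ENSMUST00000123875 intron 1 gave -0.22 to 0.81 with 1 library left out. *Sap18* ENSMUST00000128764 intron 3 gave 0.63 at the 3′ junction and -0.30 to 0.11 with 1 library left out.

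Genes called for unsplit reads (338) became 205 when scaled to split reads, which moved the median of all genes from -0.01 to 0.10, and 118 to 380 with 1 library left out. Scaled to split reads, *Srrm1* gave 0.027, *Srrm2* 0.089, *Pnn* 0.052 and *Son* -0.27. With 1 library left out the range was -0.059 to 0.0082 for *Srrm2*, -0.20 to 0.10 for *Pnn*, -0.049 to 0.25 for *Acin1* and -0.51 to 0.074 for *Rnps1*. For long reads, 801 transcripts at least 2-fold lower became 231 with 5 reads added, 258 with at least 50 reads and 55 among those of at least 7000 nt, and 459 at least 2-fold higher became 88 and 21 under the last pair. With 5 reads added, *Acin1* ENSMUST00000148754 gave 0.057 and ENSMUST00000167495 gave 0.16. With 2 samples per group the standard errors limit which small changes can be told from the spread, and with 37 *Son* long reads in the knockdown shifts among its transcripts were not detectable.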
